A study of Mus musculus with 9 samples.

Results

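The 36 genes described here are those of glucose uptake, glycolysis and lactate export, the transcription factor subunit gene Hif1a with the 3 prolyl hydroxylase genes that control its protein, and 5 non-glycolytic targets of that factor. They were chosen by gene name among the 24168 gene names (24187 identifiers) of the deposited tables. No measured value entered the rule, but the genes were chosen with earlier results of these data known. Aldoa is listed under 2 identifiers, so the 36 names make 37 entries, all of which had reads enough to be tested in every comparison. The cells were macrophages grown from the bone marrow of C57BL/6 mice at 8 weeks of age, by 6 days of culture with 10 ng/ml of M-CSF, the growth factor that drives macrophage differentiation. The cells were profiled by RNA-seq in 3 states of 6 h, each with 3 libraries. Control cells had medium alone, LPS cells had 500 ng/ml of lipopolysaccharide, the bacterial outer membrane component that activates macrophages through TLR4, and the cells called LPS + NCT503 had the same LPS with 50 µM NCT503, an inhibitor of the serine synthesis enzyme PHGDH. All groups were of the same strain with no genetic change named. No group had NCT503 without LPS, so its effect was measured only in LPS-treated cells. The labels name no solvent for the controls. Nothing in them says that the replicates came from separate cultures or animals. The p-values therefore describe the spread among these libraries only, which may be technical.

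Glycolysis splits glucose into pyruvate, which lactate dehydrogenase turns into lactate for export from the cell. Several of the steps are carried out by families of isoenzymes encoded by different genes. HIF-1α, the protein of Hif1a, is marked for destruction by the oxygen-dependent prolyl hydroxylases of the Egln genes. When it escapes them, by low oxygen or in activated macrophages, it raises transcription of many glycolytic genes and of targets outside glycolysis such as Vegfa. It binds DNA at a core of ACGTG or GCGTG.

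The core was looked for in the 250 bases before the transcription start of each gene, in the RefSeq promoter table of build GRCm38.p6, where 35 of the 36 genes had an entry and Slc2a3 had none. The core stood on at least 1 strand in 28 of these 35 windows (80%), against 38.6% of all 32851 promoter windows of the same length in the table. Read on both strands, it overlaps the wider motif CACGTG, which other factors also bind. For genes with several listed starts, the one nearest the gene start in the deposited tables was used. For some genes the start used still lies far from that gene start. The distance was 4329 bases for Ldha, 5857 for Ankrd37, 6492 for Hif1a, 8458 for Aldoa and 13205 for Pfkfb2. Both cores hold the letters CG, and the windows were not matched for base composition or expression, whose part in the 80% against 38.6% was not tested. A match describes the letters of a window and shows no binding. The following 4 windows are shown because their genes are among those on which the results turn: Egln3 (chr12:54203875-54204124, minus strand) and Hk2 (chr6:82774455-82774704, minus strand) rose further with NCT503, and Slc2a6 (chr2:27027999-27028248, minus strand) and Egln2 (chr7:27166803-27167052, minus strand) fell with it. They were chosen after the values were seen. Each is written 5′ to 3′ on the gene's strand, and capitals mark each core on either strand (ACGTG and GCGTG, or CACGT and CACGC where the core is on the other strand).
Egln3: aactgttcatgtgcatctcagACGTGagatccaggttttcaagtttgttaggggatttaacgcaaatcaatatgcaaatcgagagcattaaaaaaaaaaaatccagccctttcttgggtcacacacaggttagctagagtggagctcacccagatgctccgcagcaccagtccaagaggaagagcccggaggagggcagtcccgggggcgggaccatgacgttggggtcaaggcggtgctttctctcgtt
Hk2: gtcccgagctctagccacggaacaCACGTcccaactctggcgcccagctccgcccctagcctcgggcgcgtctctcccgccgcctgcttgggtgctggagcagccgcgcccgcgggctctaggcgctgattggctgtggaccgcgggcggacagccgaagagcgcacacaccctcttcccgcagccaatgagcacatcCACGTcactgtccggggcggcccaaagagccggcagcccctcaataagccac
Slc2a6: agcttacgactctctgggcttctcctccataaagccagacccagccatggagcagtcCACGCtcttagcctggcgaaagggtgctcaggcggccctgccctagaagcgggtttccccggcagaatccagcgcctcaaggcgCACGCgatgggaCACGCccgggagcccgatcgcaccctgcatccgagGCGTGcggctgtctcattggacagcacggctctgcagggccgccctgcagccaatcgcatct
Egln2: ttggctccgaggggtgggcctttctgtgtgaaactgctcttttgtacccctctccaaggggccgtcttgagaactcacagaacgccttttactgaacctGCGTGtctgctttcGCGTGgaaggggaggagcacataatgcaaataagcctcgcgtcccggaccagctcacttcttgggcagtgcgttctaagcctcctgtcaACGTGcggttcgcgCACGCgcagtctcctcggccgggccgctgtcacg
The window of Egln3 holds 1 core, that of Hk2 holds 2, and those of Slc2a6 and Egln2 hold 4 each, none of them part of CACGTG. Of the 11 members that rose with NCT503, 8 had a core in their window, and of the 7 with a window that fell, 6 had one. Vegfa, Eno2 and Gpi1 were the other 3 that rose. Only the 250 bases were read, so a window without a core does not show that the gene lacks one elsewhere. The windows of Hif1a and Pfkfb2, which rose, and of Ankrd37, which fell, are among those far from the gene start.

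The 9 libraries held 20295862 to 23599685 reads over the 21434 genes that both tables share. Levels per library are given as normalized reads, that is reads divided by a size factor computed over the 9 libraries together. Log2 fold changes are those of limma on log2(normalized reads + 1), each with its standard error, from the scaling of the comparison's own 6 libraries. A gene is said to rise or fall where its Benjamini-Hochberg adjusted p over all genes tested was under 0.05. Markers of macrophages, 10 of 10 listed, were present in every library, with summed levels of 281423 to 359809 normalized reads in control, 431212 to 483155 with LPS and 208930 to 269964 with LPS + NCT503. Lyz2, the largest part of the sum, was at 213090 to 253641 with LPS and 92157 to 136761 with LPS + NCT503. Cd14 was at 3244 to 4658 in control, 75244 to 90464 with LPS and 13156 to 22954 with LPS + NCT503, so both LPS groups lay above control. Csf1r (34631 to 39421 and 34735 to 45389) and Cd68 (19763 to 25401 and 21648 to 24095) overlapped between LPS and LPS + NCT503. With NCT503, 6 of the 10 fell and none rose (60% called, against 32.6% of all genes). The sum of 11 neutrophil markers was 4934 to 8390 in control, 2972 to 6672 with LPS and 488 to 1217 with LPS + NCT503, and that of 12 fibroblast and stromal markers was 7897 to 37043, 22454 to 46741 and 26702 to 65573. The sum of 6 mast cell and basophil markers was 872 to 1009, 1089 to 1602 and 215 to 246 in the same order of groups, and that of 8 T and NK cell markers was 123 to 243, 152 to 303 and 45.8 to 88.7, both lowest with LPS + NCT503. The sum of 5 endothelial markers stood in ascending groups, as Vegfa did in its means, at 542 to 1487 (highest in control library 1), 1804 to 1951 and 2616 to 3075. Among these markers only Kdr stood in ascending groups without overlap, at 371 to 569, 1425 to 1493 and 1789 to 2353. Cdh5, Pecam1, Emcn and Tek overlapped between control and LPS. Cdh5, Pecam1 and Emcn were higher in all LPS + NCT503 libraries than in any LPS library. The summed level of 6 dendritic cell markers was 87.3 to 123, 657 to 816 and 217 to 366. Most of it was Ccr7, at 77.7 to 84.0, 601 to 729 and 148 to 263. Xcr1 (10.4 to 31.5 and 22.9 to 63.2), Zbtb46, Flt3 and Clec9a overlapped between LPS and LPS + NCT503, and Siglech had at most 3.46. For 4 B cell markers the sum was 89.6 to 129, 27.3 to 72.1 and 31.6 to 69.3, and for 4 erythroid markers 21.4 to 66.9 over all libraries. Of the B cell markers, Cd79b was at 77.0 to 87.3, 8.06 to 18.4 and 2.08 to 17.3. Pax5 went the other way from control, at 0, 5.76 to 17.0 and 4.08 to 20.6. Within the controls, library 1 had the highest stromal sum and the highest Vegfa, Hif1a, P4ha1 and P4ha2. The part of such cells in the results was not tested, and in bulk RNA fewer cells of a type and less RNA per cell cannot be told apart.

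LPS raised 29 of the 37 entries and lowered 4, so that 33 (89.2%) were called against 41.8% of all genes tested, of which 20.5% rose and 21.4% fell. The libraries of the 2 groups did not overlap for 33 entries, against 50.8% of all genes. The median log2 fold change was 1.33, against -0.05 over all genes. With NCT503 added to LPS, 11 entries rose and 8 fell, and 18 were not called. These 19 calls (51.4%) stand against 32.6% of all genes, 16.9% higher and 15.7% lower, and 22 entries did not overlap between the groups, against 44.9% of all genes. The median was -0.21, against 0.08 over all genes. Compared with control, LPS + NCT503 cells had 26 entries higher and 3 lower (78.4% called, against 40.4% of all genes, 20.7% higher and 19.7% lower), with no overlap for 32 against 50.2% of all genes and a median of 1.40 against 0.05. The LPS libraries enter both of the first comparisons, and the controls enter both comparisons against control, so the values of a gene in these comparisons are not independent of each other. Leaving out control library 1, 32 entries were called between LPS and control and 29 between LPS + NCT503 and control, and leaving out LPS + NCT503 library 2, 24 were called between LPS + NCT503 and LPS.

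By their calls in the first 2 comparisons the members showed several patterns. Of the 29 that rose with LPS, 8 rose again with NCT503 (Egln1, Egln3, Eno2, Hif1a, Hk2, P4ha2, Slc16a1 and Vegfa), 6 fell (Ankrd37, Egln2, Hk1, Pdk3, Pfkfb3 and Slc2a6) and 15 were not called. Pfkfb2 and Pfkm fell with LPS and rose with NCT503, Pfkfb4 fell in both, and Aldoc fell with LPS and was not called with NCT503. Gpi1 rose and Slc2a3 fell with NCT503, and neither was called with LPS. Pdk1 and the second Aldoa entry were called in neither.

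**Figure D1:**
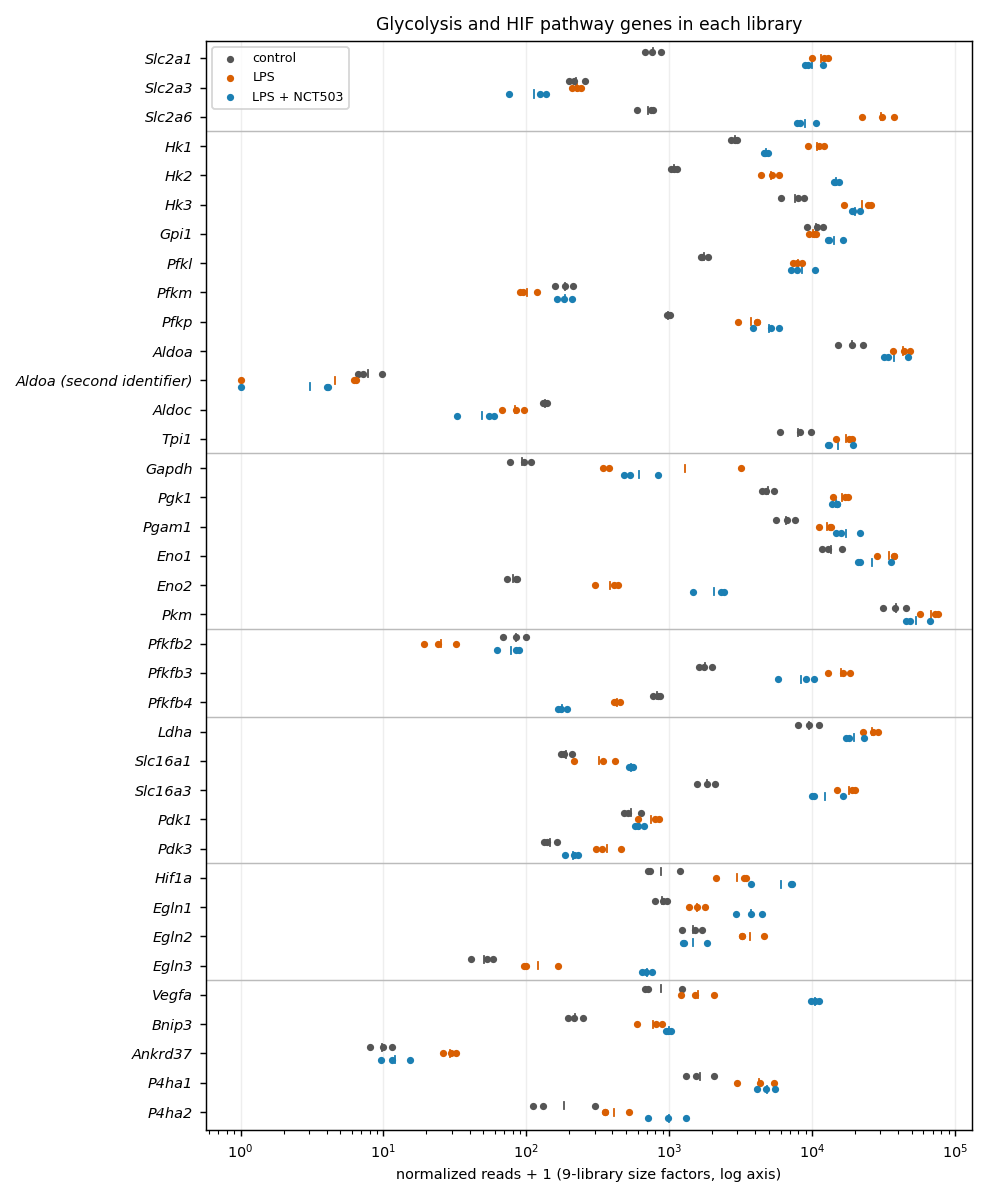
Normalized reads plus 1 (log axis, 9-library size factors) of the 37 entries in each library, with dots for libraries and ticks for group means, grouped by role. Most members lie higher in both LPS groups than in control, while Vegfa, Egln3, Eno2 and Hk2 are highest and Slc2a3, Aldoc and Pfkfb4 lowest with LPS + NCT503.

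**Figure D2:**
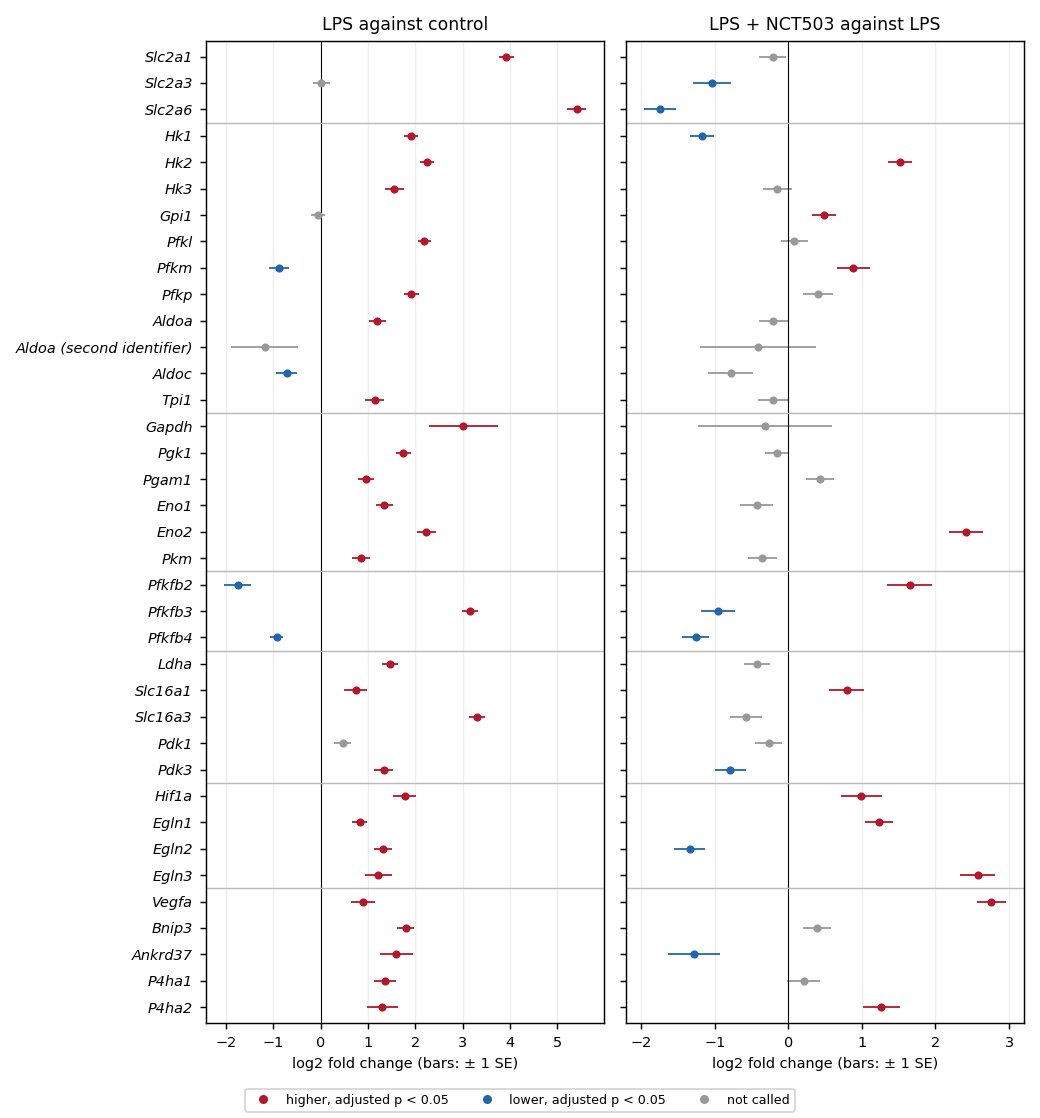
Log2 fold change of each entry between LPS and control (left) and between LPS + NCT503 and LPS (right), with bars of 1 standard error and colour for calls at an adjusted p under 0.05. The left panel holds 29 higher and 4 lower entries, and the right panel 11 higher and 8 lower.

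Glucose enters the cell through the facilitative transporters of the Slc2a family. Slc2a1, the gene of the ubiquitous transporter GLUT1, was at 676, 757 and 877 normalized reads in control, 9961, 12072 and 12797 with LPS, and 8884, 11870 and 9285 with LPS + NCT503. Both LPS groups lay above all controls, and they overlapped each other. Slc2a1 rose with LPS by 3.92 ± 0.16 (adjusted p = 9.56e-09), a 15.1-fold difference of mean levels, and the change with NCT503 was -0.22 ± 0.18 (adjusted p = 0.391). Slc2a6, the gene of the transporter GLUT6, was at 592, 770 and 748 in control, 22431, 37168 and 30984 with LPS, and 10707, 7780 and 8188 with LPS + NCT503. The 3 groups did not overlap, and the LPS + NCT503 libraries lay between the others. It had the largest LPS response of the members, 5.41 ± 0.20 (42.9-fold, adjusted p = 3.84e-09), and the largest fall with NCT503, by 1.75 ± 0.22 (adjusted p = 0.000112). Slc2a3, the gene of the high-affinity transporter GLUT3, was low, at 198, 257 and 214 in control, 240, 206 and 226 with LPS, and 124, 74.9 and 135 with LPS + NCT503. All LPS + NCT503 libraries lay below the other 6, which overlapped. Slc2a3 fell with NCT503 by 1.04 ± 0.25 (adjusted p = 0.00911), and its LPS value was 0.02 ± 0.18 (adjusted p = 0.955). Under scaling by library totals it was called lower with LPS (-0.68, adjusted p = 0.0134). Per kb of exon, Slc2a1 and Slc2a6 made up 46.8 ± 2.5% and 46.6 ± 1.9% of the 3 transporters in control (mean ± SD, n = 3). With LPS the shares were 26.4 ± 3.1% and 73.4 ± 3.2%, and with LPS + NCT503 they were 50.7 ± 7.6% and 49.1 ± 7.5%.

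Hexokinases trap glucose in the cell as glucose 6-phosphate, and of the 3 genes measured here Hk2 rose and Hk1 fell with NCT503. Hk2, the inducible hexokinase, was at 1031, 1077 and 1135 normalized reads in control, 5203, 4408 and 5886 with LPS, and 14397, 14201 and 15395 with LPS + NCT503. The groups did not overlap and stood in that order. Hk2 rose with LPS by 2.25 ± 0.15 (adjusted p = 4.26e-07) and with NCT503 by a further 1.52 ± 0.17 (adjusted p = 4.93e-05), which put it 13.6-fold above control. Hk1, the widely expressed hexokinase, was at 2707, 2899 and 2996 in control, 9337, 11082 and 12014 with LPS, and 4918, 4702 and 4607 with LPS + NCT503. Here the LPS + NCT503 libraries lay between the other groups, without overlap. Hk1 rose with LPS by 1.91 ± 0.15 (adjusted p = 1.46e-06) and fell with NCT503 by 1.18 ± 0.16 (adjusted p = 0.000259). Its difference between LPS + NCT503 and control, 0.73 ± 0.13 (adjusted p = 0.0016), was not called under scaling by library totals (adjusted p = 0.0687) or quantile normalization (adjusted p = 0.163). Hk3, the hexokinase of myeloid cells, had the highest level per kb of the 3 in every library, between 62.5% and 81.5% of the family. It rose with LPS by 1.56 ± 0.21 (adjusted p = 9.53e-05) and changed by -0.15 ± 0.20 with NCT503 (adjusted p = 0.585). Within libraries, the ratio of Hk1 to Hk2 was 6.48-fold lower with LPS + NCT503 than with LPS, a log2 difference of -2.70 over ratios whose SD was 0.10 and 0.25. Such a ratio does not depend on how libraries are scaled. The Hk2 share of the family went from 7.1 ± 0.9% in control and 10.8 ± 2.5% with LPS to 29.3 ± 1.8% with LPS + NCT503, and the Hk1 share from 13.2 ± 1.5% and 15.5 ± 1.1% to 6.6 ± 0.2%.

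Of the other enzymes between glucose 6-phosphate and the triose phosphates, 4 rose with LPS, where 20.5% of all genes rose. Pfkl and Pfkp, the liver-type and platelet-type phosphofructokinases, rose by 2.19 ± 0.14 and 1.91 ± 0.16, and Aldoa and Tpi1, of aldolase and triose phosphate isomerase, by 1.20 ± 0.19 and 1.15 ± 0.20. None of these 4 was called with NCT503, with values from -0.21 to 0.40. Pfkp (0.40) was called higher with NCT503 under scaling by library totals (0.65, adjusted p = 0.0326), under quantile normalization (0.64, adjusted p = 0.0319) and without LPS + NCT503 library 2 (0.58, adjusted p = 0.0278). Gpi1, the glucose 6-phosphate isomerase gene, was at 9188, 10790 and 11830 normalized reads in control, 9512, 10596 and 10249 with LPS, and 12975, 16446 and 13133 with LPS + NCT503. Only the LPS + NCT503 libraries stood apart, above the other 6. Gpi1 had an LPS value of -0.06 ± 0.15 (adjusted p = 0.796), and was called lower with LPS under scaling by library totals (-0.76, adjusted p = 0.00014) and quantile normalization (-1.04, adjusted p = 5.35e-06). It rose with NCT503 by 0.48 ± 0.17 (adjusted p = 0.0447), a call that was lost when any 1 of the 6 libraries was left out (adjusted p from 0.0634 to 0.127). Pfkm, the muscle-type phosphofructokinase, was at 158, 184 and 212 in control, 93.3, 88.6 and 117 with LPS, and 183, 162 and 207 with LPS + NCT503. The LPS libraries lay below all others, and the other groups overlapped. Pfkm fell with LPS by 0.88 ± 0.21 (adjusted p = 0.0054) and rose with NCT503 by 0.88 ± 0.22 (adjusted p = 0.0104, and 0.0635 without LPS + NCT503 library 3). Aldoc, the brain-type aldolase, was at 130, 134 and 139, then 82.9, 66.8 and 95.7, then 31.6, 54.1 and 58.4 in the same order of groups. No groups overlapped, and the order was descending. Aldoc fell with LPS by 0.72 ± 0.21 (adjusted p = 0.0184), and its value with NCT503 was -0.79 ± 0.30 (adjusted p = 0.0682). The fall with NCT503 was called with all 9 libraries in 1 fit (adjusted p = 0.0332), under quantile normalization (-1.03, adjusted p = 0.0221) and without LPS + NCT503 library 2 (adjusted p = 0.0491). The LPS call was lost under quantile normalization (adjusted p = 0.143) and without control library 2 (adjusted p = 0.0763), control library 3 (0.0599) or LPS library 2 (0.061). Aldoc made up at most 0.9% of aldolase reads per kb. The second Aldoa entry had at most 8.81 normalized reads in any library.

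The genes of the steps from glyceraldehyde 3-phosphate to pyruvate also rose with LPS, 6 of 6, where 20.5% of all genes rose. These 6 include Gapdh, whose values are uncertain. Pgk1, of phosphoglycerate kinase, rose by 1.74 ± 0.16, Eno1, the ubiquitous enolase, by 1.34 ± 0.18, Pgam1, of phosphoglycerate mutase, by 0.96 ± 0.16 and Pkm, of pyruvate kinase, by 0.85 ± 0.19. With NCT503 these 4 had values of -0.15, -0.43, 0.43 and -0.36, and none was called. Pgam1 was called higher with NCT503 under scaling by library totals (0.68, adjusted p = 0.00741) and quantile normalization (0.81, adjusted p = 0.00321). LPS + NCT503 library 2 had the highest Eno1, Pgam1 and Pkm of its group, for Eno1 35746 normalized reads against 21619 and 20764. Without this library Eno1 and Pkm were called lower with NCT503 (-0.68, adjusted p = 0.0122, and -0.52, adjusted p = 0.0426). Eno2, the enolase named for neurons, was at 71.7, 83.3 and 84.9 in control, 408, 434 and 303 with LPS, and 2420, 1473 and 2293 with LPS + NCT503. The 3 groups did not overlap, and stood in ascending order. Eno2 rose with LPS by 2.23 ± 0.20 (adjusted p = 4.28e-06) and with NCT503 by 2.42 ± 0.23 (adjusted p = 1.79e-05), and was 25.8-fold above control, the largest ratio of LPS + NCT503 to control among the members. Its share of enolase reads per kb was 0.7 ± 0.1% in control, 1.3 ± 0.3% with LPS and 9.0 ± 3.9% with LPS + NCT503.

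Gapdh, of glyceraldehyde 3-phosphate dehydrogenase, is uncertain in these tables. Its entry held 107, 94.5 and 75.3 normalized reads in control, 3158, 375 and 342 with LPS, and 480, 827 and 528 with LPS + NCT503. The first LPS library stood far above the other LPS libraries. A total of 99 annotated pseudogenes match the Gapdh transcripts at 95% identity or more over at least 300 bases, and the 79 of these in both tables together held 997 normalized reads in control library 1, against 107 at Gapdh itself. The called rise with LPS (3.01 ± 0.74, adjusted p = 0.00998) had no p-value in the authors' deposited table. With 1 library left out its value ranged from 1.97, without LPS library 1, to 3.57. The NCT503 value of -0.32 ± 0.91 became 0.72 without LPS library 1.

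Fructose 2,6-bisphosphate, the strongest activator of phosphofructokinase, is made and removed by the bifunctional enzymes of the Pfkfb genes, and the 3 measured here followed 3 patterns. Pfkfb3, whose enzyme mostly makes the activator, was at 1989, 1605 and 1734 normalized reads in control, 16489, 12841 and 18244 with LPS, and 10246, 5721 and 9036 with LPS + NCT503. The groups did not overlap, with LPS + NCT503 between the others. It rose with LPS by 3.15 ± 0.17 (adjusted p = 6.73e-08) and fell with NCT503 by 0.95 ± 0.23 (adjusted p = 0.00867). The fall was not called under quantile normalization (adjusted p = 0.0762) or without LPS library 3 (adjusted p = 0.0546). Pfkfb4 was at 764, 859 and 829, then 453, 410 and 416, then 165, 192 and 173 in the same order of groups. Its libraries formed 3 tight, separate and descending groups. It fell by 0.93 ± 0.14 with LPS (adjusted p = 0.000299) and by 1.26 ± 0.18 with NCT503 (adjusted p = 0.000332). Pfkfb2, the heart-type enzyme, was at 99.1, 83.3 and 68.1 in control, 31.1, 23.2 and 18.4 with LPS, and 83.6, 61.4 and 87.7 with LPS + NCT503. The LPS libraries lay below the other 6, which overlapped. Pfkfb2 fell with LPS by 1.76 ± 0.29 (adjusted p = 0.000507) and rose with NCT503 by 1.65 ± 0.31 (adjusted p = 0.00175). Its exons share 1262 bases with a gene model on the same strand, Gm29427, whose reads cannot be told apart from it. The Pfkfb3 share of the family per kb was 56.6 ± 3.8% in control, 95.8 ± 0.7% with LPS and 95.7 ± 1.4% with LPS + NCT503. Within libraries the ratio of Pfkfb3 to Pfkfb4 was 17.0-fold higher with LPS than in control, without overlap, and overlapped between the 2 LPS groups.

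**Figure D3:**
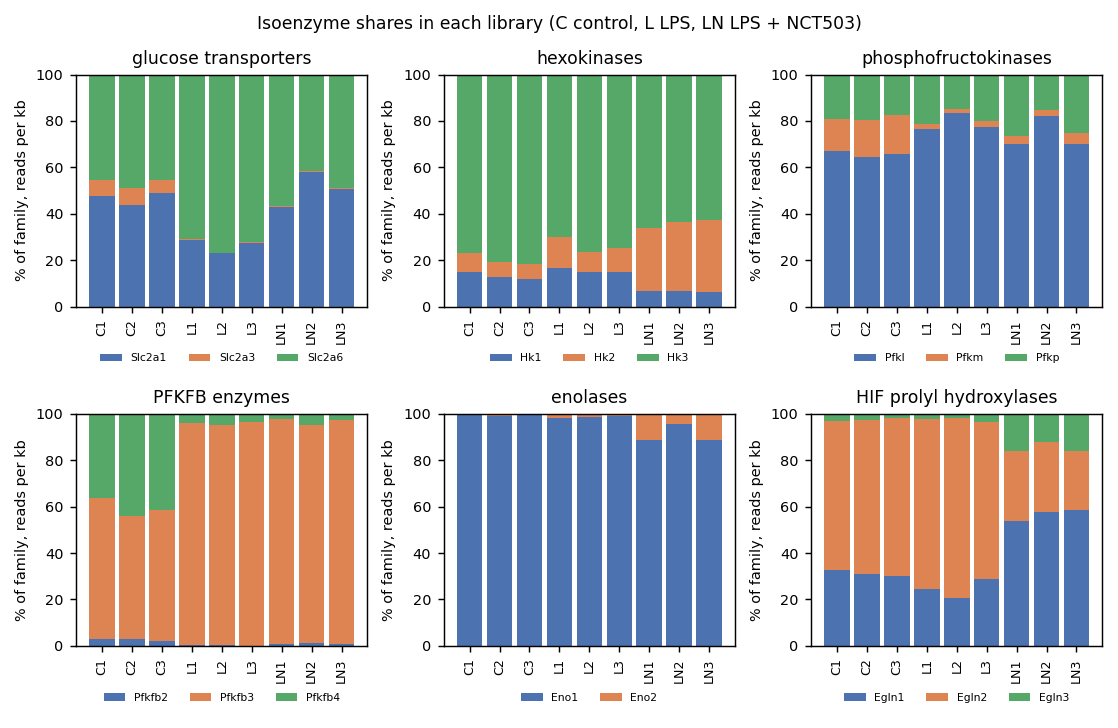
Share of each isoenzyme in its family, in percent of reads per kb of exon, in each library (C control, L LPS, LN LPS + NCT503). The Hk2 part is wider in the LN libraries (29.3% on average against 10.8% in L), Pfkfb3 fills over 90% of its family in L and LN, and Egln1 exceeds Egln2 in LN alone.

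At the end of the pathway, Ldha, of the lactate dehydrogenase subunit that favours lactate, was at 8000, 9459 and 11210 normalized reads in control, 22793, 26827 and 28789 with LPS, and 18192, 23083 and 17315 with LPS + NCT503. Both LPS groups lay above control and overlapped each other by 1 library. Ldha rose with LPS by 1.46 ± 0.17 (adjusted p = 3.87e-05). Its NCT503 value of -0.42 ± 0.18 was not called (adjusted p = 0.0907), and was called without LPS + NCT503 library 2 (-0.55, adjusted p = 0.0259) or without LPS library 1 (-0.52, adjusted p = 0.0437). Slc16a3, the gene of the lactate exporter MCT4, was at 1558, 1844 and 2099, then 15001, 19888 and 18933, then 10317, 16453 and 9938. The library that kept the LPS groups from separating was again LPS + NCT503 library 2. Slc16a3 rose with LPS by 3.29 ± 0.17 (9.78-fold, adjusted p = 5.12e-08). It had an NCT503 value of -0.58 ± 0.22 (adjusted p = 0.0623), which was called without that library (-0.81, adjusted p = 0.0043) or without LPS library 1 (-0.71, adjusted p = 0.0405). Slc16a1, the gene of the transporter MCT1, was at 182, 173 and 207, then 341, 213 and 417, then 520, 554 and 548. The groups stood in ascending order without overlap, LPS library 2 lying close to the controls. It rose by 0.74 ± 0.24 with LPS (adjusted p = 0.0273) and by 0.79 ± 0.24 with NCT503 (adjusted p = 0.025). The first call was lost when any library but LPS 2 was left out (adjusted p from 0.0508 to 0.135), and the second without LPS library 2, LPS + NCT503 library 1 or LPS + NCT503 library 3 (adjusted p from 0.0608 to 0.0892). Pdk3, of a kinase that holds back the entry of pyruvate into mitochondria, rose with LPS by 1.33 ± 0.20 (adjusted p = 0.000232) and fell with NCT503 by 0.79 ± 0.21 (adjusted p = 0.0147). The fall was not called under scaling by library totals (adjusted p = 0.0865) or without LPS library 3 (adjusted p = 0.0847). Pdk1, of a second such kinase and a known HIF target, was at 515, 478 and 631 in control, 847, 600 and 796 with LPS, and 663, 574 and 606 with LPS + NCT503. All groups overlapped, with an LPS value of 0.46 ± 0.18 (adjusted p = 0.059) and an NCT503 value of -0.27 ± 0.19 (adjusted p = 0.296). DESeq2 on the recovered reads called the LPS rise of Pdk1 (0.47, adjusted p = 0.0483).

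Hif1a and the 3 prolyl hydroxylase genes rose with LPS, 4 of 4, where 20.5% of all genes rose. All 4 were called with NCT503, against 32.6% of all genes. Hif1a was at 1179, 732 and 711 normalized reads in control, 3455, 2104 and 3333 with LPS, and 7048, 3757 and 7202 with LPS + NCT503. The groups did not overlap, and the second library was the lowest of the LPS group and of the LPS + NCT503 group. Hif1a rose with LPS by 1.77 ± 0.24 (adjusted p = 0.0001) and with NCT503 by 0.99 ± 0.27 (adjusted p = 0.0167). The second call was lost without LPS library 2 (0.77, adjusted p = 0.0781), LPS + NCT503 library 1 (0.85, adjusted p = 0.0702) or LPS + NCT503 library 3 (0.83, adjusted p = 0.0823). Egln3, the hydroxylase gene most strongly induced by HIF, was at 51.9, 57.4 and 40.1 in control, 97.9, 95.5 and 165 with LPS, and 645, 686 and 752 with LPS + NCT503. The groups did not overlap, and the LPS + NCT503 libraries lay far above the others. It rose with LPS by 1.22 ± 0.28 (adjusted p = 0.00407) and with NCT503 by 2.57 ± 0.24 (adjusted p = 1.43e-05). Egln1, the main oxygen sensor and also a HIF target, was at 798, 897 and 956, then 1367, 1549 and 1772, then 2916, 4465 and 3723, in separate ascending groups. It rose by 0.82 ± 0.15 (adjusted p = 0.00118) and by 1.23 ± 0.20 (adjusted p = 0.000627). Egln2, the hydroxylase gene that HIF is not known to induce, was at 1217, 1513 and 1691 in control, 3209, 4566 and 3248 with LPS, and 1258, 1848 and 1252 with LPS + NCT503. The LPS libraries stood above the other 6, which overlapped. Egln2 rose with LPS by 1.32 ± 0.18 (adjusted p = 0.000145) and fell with NCT503 by 1.34 ± 0.21 (adjusted p = 0.000626), with a difference of -0.03 ± 0.20 between LPS + NCT503 and control (adjusted p = 0.911). Per kb, Egln2 held 66.4 ± 2.0% of the 3 hydroxylases in control, 72.9 ± 5.1% with LPS and 28.6 ± 2.8% with LPS + NCT503. The Egln1 shares were 31.2 ± 1.4%, 24.5 ± 4.1% and 56.7 ± 2.4%, so Egln1 exceeded Egln2 in the LPS + NCT503 libraries alone. The ratio of Egln2 to Egln3 within libraries was 15.1-fold lower with LPS + NCT503 than with LPS, a log2 difference of -3.92.

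The 5 HIF targets outside glycolysis all rose with LPS, where 20.5% of all genes rose. With NCT503, 2 rose, 1 fell and 2 were not called (60% called, against 32.6% of all genes). Vegfa, of the angiogenic growth factor VEGF-A, was at 1230, 671 and 704 normalized reads in control, 1500, 1208 and 2048 with LPS, and 9824, 10513 and 11184 with LPS + NCT503. Control library 1 reached into the LPS range, and all LPS + NCT503 libraries lay far above the other 6. The LPS rise of Vegfa, 0.90 ± 0.25 (adjusted p = 0.0133), was lost without control library 2 (0.0667), control library 3 (0.068) or LPS library 3 (0.0844), and under scaling by library totals (0.621) or quantile normalization (0.142). With NCT503 it rose by 2.76 ± 0.20 (6.63-fold, adjusted p = 3.02e-06), the largest NCT503 rise among the members. P4ha2, of a collagen prolyl hydroxylase, was at 303, 130 and 111, then 354, 355 and 522, then 714, 1312 and 972. Its groups did not overlap, and control library 1 was close to the LPS level. It rose by 1.30 ± 0.33 with LPS (adjusted p = 0.00768, and 0.055 without LPS library 3) and by 1.26 ± 0.25 with NCT503 (adjusted p = 0.00234). The stromal marker sum was likewise highest in control library 1 and in LPS + NCT503 library 2, 65573 normalized reads, and its part in the P4ha2 values was not tested. P4ha1, of the sister enzyme, rose with LPS by 1.36 ± 0.23 (adjusted p = 0.000553) and changed by 0.21 ± 0.22 with NCT503 (adjusted p = 0.502). Bnip3, of a mitochondrial protein that promotes the removal of mitochondria, was at 215, 195 and 246, then 885, 595 and 812, then 1033, 978 and 952. Its groups stood in ascending order without overlap. It rose with LPS by 1.79 ± 0.19 (adjusted p = 1.54e-05), and its NCT503 value of 0.39 ± 0.19 (adjusted p = 0.134) was not called, but was under scaling by library totals (0.64, adjusted p = 0.039). Ankrd37, a small ankyrin repeat gene with few reads, was at 8.88, 7 and 10.4, then 31.1, 28.6 and 24.9, then 14.3, 10.4 and 8.66. The LPS libraries lay above the other 6, which overlapped. Ankrd37 rose with LPS by 1.60 ± 0.35 (adjusted p = 0.00308) and fell with NCT503 by 1.28 ± 0.35 (adjusted p = 0.0169). That fall was lost without LPS library 2 (adjusted p = 0.0546) or LPS + NCT503 library 3 (adjusted p = 0.0722), and Ankrd37 shares 349 exon bases with Lrp2bp on the other strand.

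**Figure D4:**
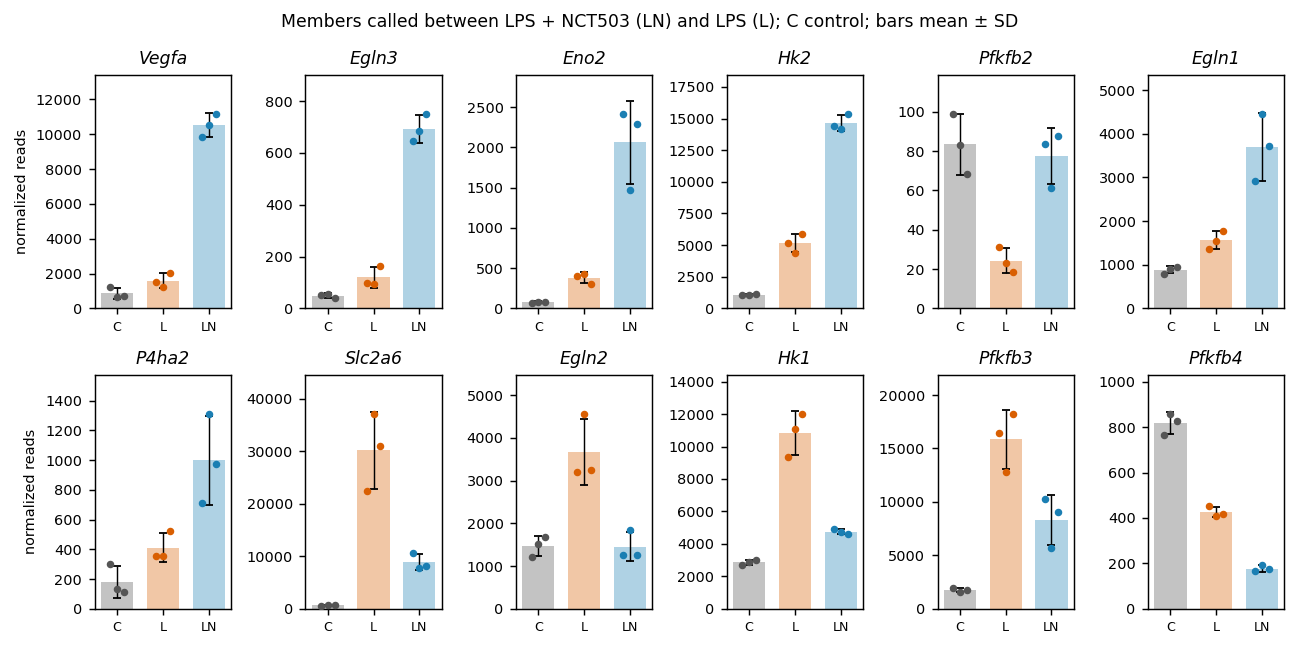
Normalized reads (9-library size factors) of 12 of the 19 members called between LPS + NCT503 and LPS, as points per library with bars for the mean and error bars of 1 SD (n = 3). The first 7, from Vegfa to P4ha2, are higher and the last 5, from Slc2a6 to Pfkfb4, lower in LN than in L, with no overlap of the libraries of these 2 groups.

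Set side by side, the 28 glycolytic entries and the 5 non-glycolytic HIF targets had medians of 1.34 and 1.36 with LPS. Under quantile normalization these LPS medians were 0.46 and 1.39. With NCT503 the medians were -0.24 for the glycolytic entries and 0.39 for the non-glycolytic targets. Of the glycolytic entries 6 rose and 6 fell (42.9% called), and of the targets 2 rose and 1 fell (60%). Among all genes 32.6% were called, 16.9% higher and 15.7% lower. With 1 library left out the 2 medians ranged from -0.39 to -0.15 and from 0.23 to 0.50. Against control they were 1.01 and 2.18. The glycolytic median with NCT503 was 0.00 under scaling by library totals and 0.05 under quantile normalization, so its direction depends on the scaling. That of the non-glycolytic targets was 0.64 and 0.44. Counting Egln1 and Egln3 with the non-glycolytic targets, a choice made after the values were seen, gave them a median of 1.23 with NCT503. Of these 7, 4 rose and 1 fell (71.4% called). By library, the median over glycolytic entries, relative to the control mean, was 1.12, 1.43 and 1.53 with LPS and 0.91, 1.33 and 0.81 with LPS + NCT503. For the 5 targets it was 1.73, 1.11 and 1.43, then 2.12, 2.16 and 2.13. For the median of the 5 targets the LPS + NCT503 libraries were thus above all LPS libraries, while the glycolytic medians overlapped. This does not hold for each target, as Ankrd37 lay below all LPS libraries. The median change of 0.39 was that of Bnip3, which was not called. Both classes held members of either direction with NCT503, Hk2 and Eno2 rising among the glycolytic genes and Ankrd37 falling among the others.

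Levels of different genes can be set beside each other per kb of exon, in normalized reads per kb. Pkm and Aldoa led in control, at 7655 ± 1408 and 5403 ± 1047, and with LPS, at 13658 ± 1995 and 12293 ± 1738, and their libraries overlapped in both groups. Slc2a6 moved from rank 18 of 37 in control (219.04 ± 30.1) to rank 3 with LPS (9403 ± 2305) and rank 10 with LPS + NCT503 (2769 ± 494). Hk2 moved from rank 20 (181 ± 8.8) to 18 (865 ± 124) and 11 (2457 ± 107), and Vegfa from rank 19 (203 ± 73.3) to 21 (370.0 ± 99.5) and 12 (2452 ± 159). In control, all neighbours in the order from Pgam1 at rank 3 to Gpi1 at rank 9 overlapped in their libraries, as did those from Pfkl at rank 14 to Hif1a at rank 22.

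Ratios within a library were compared for 20 pairs of isoenzymes in 10 families. The groups did not overlap for 16 pairs between LPS and control, for 16 between LPS + NCT503 and LPS, and for 17 between LPS + NCT503 and control. Of all single genes, 50.8%, 44.9% and 50.2% did not overlap in these comparisons. The share for ratios of other gene pairs was not computed. Within a family of 3 genes the 3 ratios depend on each other. In an exact two-sided permutation test of 3 against 3 libraries the smallest possible p is 0.1, and the smallest value after adjustment over the 60 comparisons was 0.122, so no ratio could pass 0.05. Without overlap, the ratio of Eno1 to Eno2 was 7.20-fold lower with LPS + NCT503 than with LPS, and that of Slc2a1 to Slc2a6 was 2.89-fold higher. The ratio of Slc16a1 to Slc16a3 was 5.88-fold lower with LPS than in control and 2.59-fold higher with LPS + NCT503 than with LPS. Pfkl and Pfkp kept ratios that overlapped in all 3 comparisons, with log2 differences of 0.28, -0.32 and -0.04.

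Further genes of these pathways were taken from 3 lists. Of 25 further genes of glycolysis and its branches that were tested, 3 rose and 11 fell with LPS, with a median of -0.64, so that 56% were called against 41.8% of all genes. Gpd2, the mitochondrial glycerol 3-phosphate dehydrogenase, rose by 3.09 ± 0.18, Pgm2, a phosphoglucomutase family member, by 1.10 ± 0.16 and Me1, the cytosolic malic enzyme, by 1.25 ± 0.21. Gpd1, the cytosolic partner of Gpd2, fell by 4.95 ± 0.27. Pdk2, of a further kinase of the pyruvate dehydrogenase complex, fell by 3.55 ± 0.30, and Slc2a8, of a further glucose transporter, fell by 2.72 ± 0.24. With NCT503 9 of the 25 rose and 1 fell, with a median of 0.63 and 40% called against 32.6% of all genes. Gpd1 rose by 3.28 ± 0.31, Pdk4 by 2.58 ± 0.39 and Pcx, of pyruvate carboxylase, by 1.93 ± 0.27, and Pgam2, the muscle-type mutase, fell by 1.05 ± 0.30. Of 15 further genes of the HIF pathway, 7 rose and none fell with LPS (median 0.64), while none rose and 5 fell with NCT503 (median -0.24). These shares, 46.7% and 33.3% called, lie near those of all genes. Vhl, the ubiquitin ligase subunit that recognises hydroxylated HIF, rose with LPS by 1.17 ± 0.15 and fell with NCT503 by 0.94 ± 0.17. Eloc, another subunit of that ligase, fell by 0.78 ± 0.16 and Ep300, a coactivator of HIF, by 0.63 ± 0.16. Of 34 further HIF targets, 20 rose and 9 fell with LPS (median 1.12, 85.3% called), led by Nos2 (11.47 ± 0.39), Ak4 (4.04 ± 0.25) and Jmjd6 (2.005 ± 0.14) among those that rose and Selenbp1 (-2.86 ± 0.23), Tfrc (-2.28 ± 0.19) and Car9 (-1.65 ± 0.23) among those that fell. With NCT503, 20 rose and 5 fell, with a median of 0.92 and 73.5% called. Adm, of the vessel-relaxing peptide adrenomedullin, rose by 2.68 ± 0.22, Ero1l, of an oxidase of protein folding, by 2.47 ± 0.21 and Rora, of a nuclear receptor, by 3.39 ± 0.29. Anxa2 fell by 1.23 ± 0.16, Edn1, of the vessel-constricting peptide endothelin, by 2.07 ± 0.32 and Plod1, of a collagen lysyl hydroxylase, by 1.47 ± 0.26. Against control, the 3 lists had 7 higher and 8 lower of 24, 6 and 1 of 15, and 21 and 4 of 34, with medians of -0.27, 0.38 and 1.89, and with 62.5%, 46.7% and 73.5% called against 40.4% of all genes.

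Scaling sets the zero of these fold changes. Scaled by library totals, the median over all genes shifted by -0.63 between LPS and control, by 0.22 between LPS + NCT503 and LPS and by -0.41 between LPS + NCT503 and control. The calls over all genes were then 2094 higher and 8550 lower, 4408 and 2144, and 2452 and 6574, in place of 4089 and 4266, 3351 and 3098, and 4134 and 3927. Under that scaling 28 members were called with LPS, 22 higher and 6 lower. Vegfa, Egln1, Egln3, P4ha1, P4ha2, Slc16a1 and Pkm were the members whose LPS call was lost under that scaling, while Gpi1 (-0.76) and Slc2a3 (-0.68), not called before, were called lower. Quantile normalization ended the LPS call of Aldoa, Aldoc, Eno1, Pgam1, Tpi1 and Vegfa, and that of Pkm, which became -0.11, and called Gpi1 lower (-1.04). In GENCODE M21, 15 members share exon bases with other genes. Bnip3, Gpi1, Hif1a and Pfkp do so with 330 to 748 bases on the other strand. The strand setting of the counting is not given in the sources used here, so reads of such partners cannot be told apart. Pkm, Pfkm and Hif1a share 767, 341 and 148 bases with gene models on the same strand, whose reads no strand setting separates.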

How the data were processed

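Total RNA was sequenced in 9 libraries. The aligner was TopHat2 and the build mm10, per the submitters' processing notes, and what counted the reads, with which annotation and strand setting, is not given in the sources used here, nor is the authors' differential test. The authors deposited 2 tables, of 23001 genes (LPS and control) and 22620 genes (LPS + NCT503 and LPS), which hold signal per library and group mean, that is each gene's reads scaled by the size factor of the library. Per the file headers they also hold the authors' log2 fold change in log2 units and their p-value with its adjusted form. All values (100%) were whole multiples of 1 read within a tolerance of 0.001, so whole reads were recovered. The LPS libraries, present in both tables, held the same reads over the 21434 shared genes, and the 9 libraries were joined for the levels and for LPS + NCT503 against control. Depth was 20295862 to 23599685 reads per library.

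Each comparison used the 3 libraries of both groups. A gene entered the fit where either group averaged 1 normalized read or more. The test was limma-trend (R 4.3.3, limma 3.58.1, robust eBayes, two-sided) on log2(normalized reads + 1), and genes were called at a Benjamini-Hochberg adjusted p under 0.05 over all genes tested. This scale understates changes of genes with few reads. Levels per kb use the gene length the authors list. Pseudogenes were matched with blastn 2.17.0. Scripts were tested on simulated data. The members and lists were chosen with earlier results of these data known. All members are named, and of the other lists the 3 called genes of smallest p in each direction are the named set, named for LPS against control and LPS + NCT503 against LPS, with counts alone for LPS + NCT503 against control. Alternatives were a pseudocount of 0.1, no filter, TMM, library-total (CPM) and quantile scaling, edgeR 4.0.16 and DESeq2 1.42.0 on the recovered reads, all 9 libraries in 1 fit, a log2 fold change of at least 1, the replicate number as a block, and each library left out.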

Additional observations from a re-analysis of the deposited data

How the results depend on the processing

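Calls among the 37 entries numbered 33, 19 and 29 in the comparisons of LPS with control, LPS + NCT503 with LPS and LPS + NCT503 with control. Over all alternatives they numbered 25 to 33, 13 to 25 and 24 to 30, and with 1 library left out 30 to 33, 14 to 24 and 28 to 30. Over all genes edgeR called 7769, 6098 and 7548 and DESeq2 7813, 6225 and 7676. Scaling by library totals moved the glycolytic medians from 1.34 to 0.64, from -0.24 to 0.0021 and from 1.01 to 0.56, and those of the non-glycolytic targets from 1.36 to 0.66 with LPS, from 0.39 to 0.64 with NCT503 and from 2.18 to 1.73 against control. Quantile normalization gave glycolytic medians of 0.46, 0.0463 and 0.47. Counting Egln1 and Egln3 as non-glycolytic targets gave 1.23 with NCT503. The cause of these shifts was not tested.

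Some directions turned. With LPS, Slc2a3 was -0.68 under library totals, -0.0712 under TMM and -0.0411 in edgeR, Pdk1 was -0.24 under library totals, and Pkm was -0.11 under quantile normalization. With NCT503, Slc2a1, Hk3, Aldoa, Tpi1 and Pgk1 turned to 0.0285, 0.0942, 0.0384, 0.0314 and 0.0920 under library totals and to 0.15, 0.23, 0.17, 0.19 and 0.21 under quantile normalization. Against control, Pfkm was -0.45 under library totals, -0.0774 under TMM, -0.0338 in edgeR and -0.0070 in DESeq2. Pdk1 was -0.26, Ankrd37 -0.11 and Gpi1 -0.0331 under library totals, and Pkm -0.20 and Gpi1 -0.27 under quantile normalization. With 1 library left out, 9 values crossed 0. With LPS, Slc2a3 ranged from -0.0690 to 0.123 and Gpi1 from -0.159 to 0.0293. With NCT503, P4ha1 ranged from -0.0183 to 0.400, Pfkl from -0.0796 to 0.185, Gapdh from -0.872 to 0.725 and the second Aldoa entry from -1.24 to 0.209. Against control, Pfkfb2 ranged from -0.243 to 0.0519, Pfkm from -0.106 to 0.104 and Egln2 from -0.218 to 0.0736.

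The labels do not say what the replicate numbers mark, and whether they pair the libraries is not settled here. Deviations from means of only 3 libraries are tied to each other, so their correlations cannot exclude pairing. Over all genes, deviations of same-numbered libraries correlated at 0.186, 0.0893 and -0.0306 between LPS and control, 0.400, 0.342 and -0.109 between LPS + NCT503 and LPS, and 0.0394, -0.154 and -0.233 between LPS + NCT503 and control, and not every library correlated best with its own number. With the number as a replicate block, 33, 25 and 29 entries were called. Over all genes that block gave 9714, 8186 and 8098 calls, in place of 8355, 6449 and 8061. Among the members, the block ended the LPS call of Gapdh (adjusted p = 0.107) and gave one for Pdk1 (0.00507). With NCT503 it added Aldoc, Bnip3, Ldha, Pfkp, Pgam1 and Slc16a3 (0.00751 to 0.0454). Genes with few reads, such as Ankrd37 and the second Aldoa entry, are limited by depth.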
